A study of Mus musculus with 12 samples.

Results

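The 10 genes described here set the passage of B cells through the G1 phase of the cell cycle. They are the D-type cyclins Ccnd1, Ccnd2 and Ccnd3, the kinases Cdk4 and Cdk6, the inhibitors Cdkn1b and Cdkn2c, the pocket proteins Rb1 and Rbl2 and the transcription factor E2f1. All 10 were found by symbol among the 36175 rows of the deposited gene table, and all 10 reached 1 in each of the mice, the filter of the tests, as did 12590 of all genes. The genes were selected on earlier results of the same comparison of stroke mice with sham controls, in which Ccnd3 stood out. Therefore the differences of these genes between the groups are given as a description, with no p of their own, and these genes enter only the counts over the whole table.

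Peyer's patches (PP) are lymphoid follicles in the wall of the small intestine. RNA-seq was performed on PP B cells of 12 male wild-type C57BL/6JHsd mice that were 10 to 12 weeks old, with 1 library for each mouse. In the 6 stroke mice, the middle cerebral artery was occluded for 1 h with a filament and then reperfused. In the 6 sham controls, the filament was placed in the common carotid artery and withdrawn at once. All mice received buprenorphine and carprofen, and PP were taken 18 h after surgery. B cells were isolated by negative magnetic selection followed by CD45 nanobeads, so the cells were those still in PP at that time. The libraries also held transcripts of other cells, among them epithelial ones at levels that differed widely between mice, as the marker lists further on show. Fewer cells of a type cannot be told apart from less RNA per cell in such bulk samples. The question of the comparison was which transcripts differ in the residual PP B cells after stroke.

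As background, D-type cyclins bind CDK4 or CDK6 in G1, and the active kinases phosphorylate the retinoblastoma protein RB and its relatives p107 and p130. Phosphorylated pocket proteins release E2F transcription factors, which switch on genes needed for DNA replication. In B cells, cyclin D2 acts downstream of the antigen receptor, whereas cyclin D3 is needed for the expansion of pre-B cells and of germinal centre B cells, which are abundant in PP because of constant exposure to the gut flora.

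The values are normalized TPM, a transcript abundance that is scaled by transcript length, so levels can be compared between genes. Column totals ranged from 559570 in sham control 6 to 1404340 in sham control 1, and depth is unknown, because read counts were not used here. The 6 B cell markers summed to 2071 to 2606 in sham controls and to 1491 to 2449 in stroke mice. A pair of mice stood apart. Sham control 6 had the lowest total of all mice and the lowest sum of 11 intestinal epithelial markers among sham controls, at 37.6 compared with up to 2475. Stroke mouse 5 had the lowest sum of B cell markers, at 1491, and of 6 follicular B cell markers, at 415.5 compared with 959 to 1504 in all other mice. Sham control 6 also had the lowest value of all 12 mice for 5 of the 10 genes, namely Ccnd1, Cdk4, Cdk6, Cdkn1b and Cdkn2c. The lists are described after the genes, and values without these mice are given with many of the genes.

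Ccnd3 was by far the most abundant of the 10 transcripts in PP B cells. In sham controls, its mean of 168 normalized TPM was followed by Rb1 with 55.9, Cdk4 with 47.2, Ccnd2 with 41.0, Rbl2 with 40.0, Cdkn1b with 36.1 and Cdk6 with 30.2. E2f1 with 7.51, Cdkn2c with 4.99 and Ccnd1 with 2.94 were at the lower end. Ccnd3 was above Rb1 in all 6 sham controls, with a gap of 1.59 ± 0.26 (SD, n = 6) on the log2 scale. The neighbours from Rb1 down to Cdk6 did not differ beyond the variation of the gap between mice. The next gap, from Cdk6 to E2f1, was 2.04 ± 0.21 (SD, n = 6) on the log2 scale. E2f1 exceeded Cdkn2c by 0.58 ± 0.42 and Cdkn2c exceeded Ccnd1 by 0.81 ± 0.43 on the same scale, each in 5 of 6 sham controls. In stroke mice, the order was Ccnd3 with 297 normalized TPM, then Rbl2, Rb1, Cdk4, Ccnd2, Cdkn1b and Cdk6, which again did not differ between neighbours beyond this spread, and then E2f1, Cdkn2c and Ccnd1. Ccnd3 exceeded the next transcript by 2.63 ± 0.38 (SD, n = 6) on the log2 scale in stroke mice. Hence cyclin D3 transcripts were the main D-type cyclin transcripts of these B cells in each group.

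**Figure D1:**
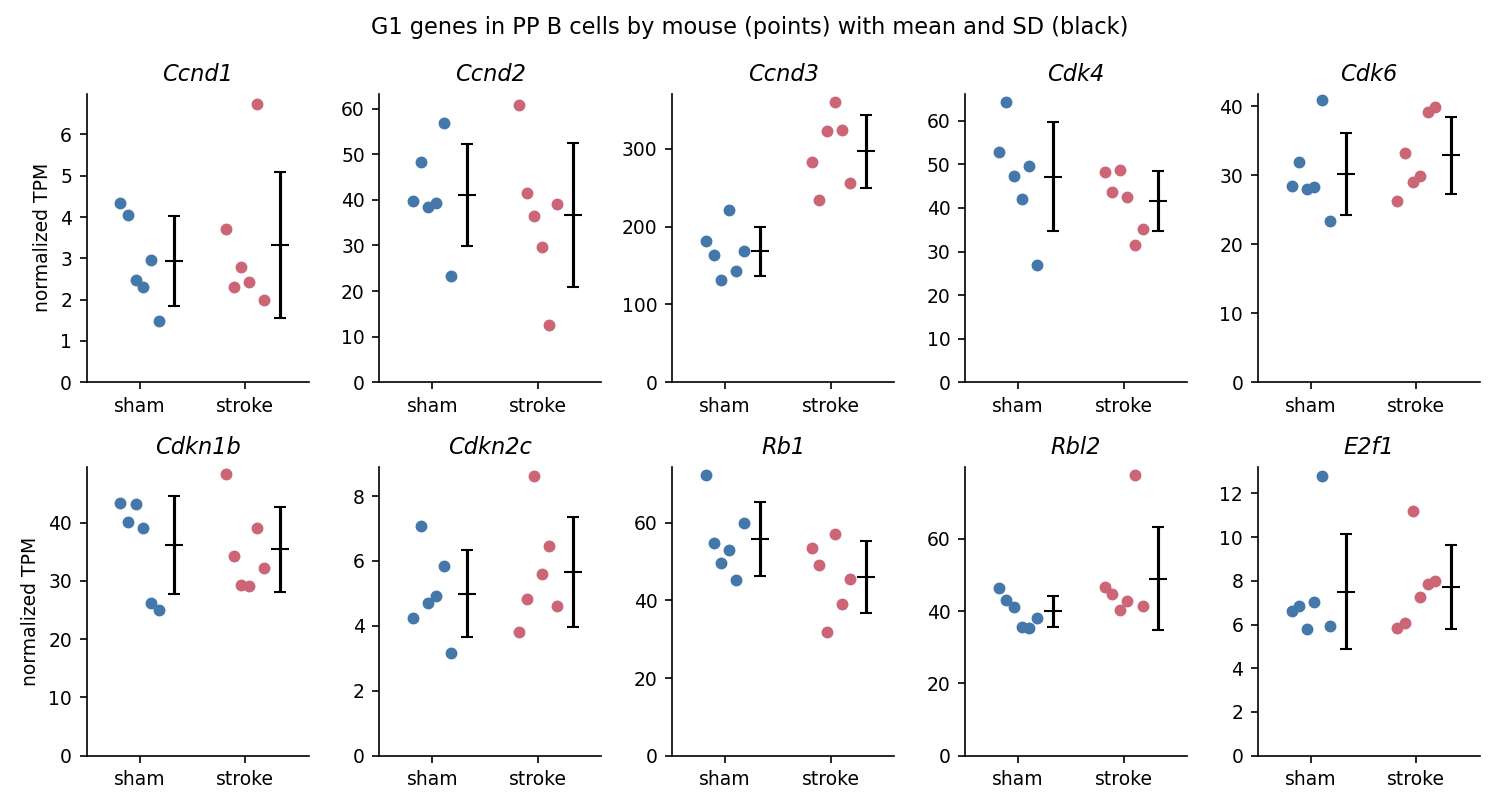
Normalized TPM of the 10 G1 genes in PP B cells, by mouse. Points are mice (6 sham controls in blue, 6 stroke mice in red), the black bars show mean and SD, and the y axes start at 0 with a separate scale for each gene. For Ccnd3 all stroke mice lie above all sham controls, whereas the groups overlap for the other 9 genes.

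Ccnd3 encodes cyclin D3 and lies on the plus strand at chr17:47505051-47599691 (GRCm38), with 21 annotated transcripts. In sham controls 1 to 6, Ccnd3 was measured at 182, 163, 132, 222, 143 and 169 normalized TPM. In stroke mice 1 to 6, it was measured at 283, 234, 324, 359.9, 324 and 257 normalized TPM. The lowest stroke mouse was above the highest sham control, so the groups did not overlap. The means were 168 ± 31.6 and 297 ± 47.3 (SD, n = 6 each), so the stroke mean was 1.76-fold higher. The log2 fold change on the log2(value + 0.5) scale was 0.82 with a standard error of 0.15, and 99.5% of all genes tested had a lower one. The gene was chosen for this difference. The log2 fold change was 0.80 without sham control 6 and stroke mouse 5, and between 0.75 and 0.90 when each mouse was left out in turn.

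For comparison with the whole table, 770 of 12590 genes (6.12%) had an unadjusted p under 0.05 in limma, a linear model test across all genes, of which 557 (4.42%) were higher and 213 (1.69%) lower in stroke mice. This split rested on sham control 6, without which 936 were higher and 1162 lower, and without both sham control 6 and stroke mouse 5 it was 818 and 819. No gene, Ccnd3 included, stayed below 0.05 when p was adjusted by the Benjamini-Hochberg method (0 genes, 0%). A complete separation of the mice of both groups was seen for 55 genes (0.437%). Among the 10 genes, 1 had an unadjusted p under 0.05 and 1 did not overlap between the groups, in each case Ccnd3, and nothing is read from these counts because the choice of the genes used this contrast.

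Ccnd3 has a pair of annotated start windows in RefSeq on build GRCm38.p6, whereas the deposited table gives 1 value for the gene. Both windows, each with 250 bases before and 50 bases after a start, are printed because transcripts from either start are summed in the value that differed between the groups. They were searched on both strands for the E-box CACGTG, which MYC proteins bind, and for TGTTTAC, a core bound by forkhead factors such as FOXO1. The upstream window holds TGTTTAC (in capitals) 243 bases before the start and no CACGTG, and the downstream window holds neither.
Ccnd3 upstream start, chr17:47504801-47505100, plus strand: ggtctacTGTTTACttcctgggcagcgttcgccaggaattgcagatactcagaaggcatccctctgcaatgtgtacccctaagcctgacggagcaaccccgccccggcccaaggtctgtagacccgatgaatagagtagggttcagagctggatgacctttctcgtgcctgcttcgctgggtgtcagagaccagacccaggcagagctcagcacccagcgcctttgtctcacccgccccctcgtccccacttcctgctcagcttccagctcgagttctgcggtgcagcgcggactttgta
Ccnd3 downstream start, chr17:47593217-47593516, plus strand: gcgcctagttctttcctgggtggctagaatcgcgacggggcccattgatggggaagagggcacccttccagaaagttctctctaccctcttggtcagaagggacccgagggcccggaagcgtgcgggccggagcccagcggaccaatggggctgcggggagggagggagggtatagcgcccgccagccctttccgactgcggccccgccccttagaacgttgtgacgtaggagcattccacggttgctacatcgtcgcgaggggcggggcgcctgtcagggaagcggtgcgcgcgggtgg
Of all 32851 RefSeq windows of this length, 7.15% hold CACGTG and 3.65% hold TGTTTAC. A match is a description of the sequence and does not show that a factor binds there.

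Ccnd2 encodes cyclin D2, the D-type cyclin that mature B cells induce after antigen receptor signals, and lies at chr6:127125162-127152193 on the minus strand. In sham controls 1 to 6, Ccnd2 was at 39.7, 48.4, 38.4, 39.4, 56.8 and 23.3 normalized TPM. In stroke mice 1 to 6, it was at 60.9, 41.5, 36.6, 29.6, 12.4 and 39.0 normalized TPM. The highest and the lowest value of all 12 mice both came from stroke mice, so the groups overlapped widely. The means were 41.0 ± 11.2 and 36.7 ± 15.9 (SD, n = 6 each), with a log2 fold change of -0.25 and a standard error of 0.32. The sign of this difference was not stable, since the log2 fold change was 0.03 without stroke mouse 5 and 0.06 with the epithelial marker score as a covariate. In the other direction, it was -0.42 without stroke mouse 1 and -0.40 without sham control 6, and it was -0.12 without both sham control 6 and stroke mouse 5.

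Ccnd1 encodes cyclin D1, which lymphocytes hardly use, and lies at chr7:144929931-144939925 on the minus strand. Its values ranged from 1.48 to 4.34 normalized TPM with a median of 2.71 in sham controls and from 1.98 to 6.73 with a median of 2.61 in stroke mice. Stroke mouse 5 was at 6.73, and the other 5 stroke mice did not exceed 3.70. The log2 fold change was 0.11 with a standard error of 0.27, and it was -0.09 without stroke mouse 5, -0.03 without sham control 6 and -0.24 without both. In the other direction, it was 0.23 without sham control 1, 0.24 at the same total and 0.26 with the epithelial marker score as a covariate. Ccnd1 transcripts thus made up a very small part of the D-type cyclins in every mouse.

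The share of Ccnd3 within the D-type cyclins does not depend on how a library was scaled. Ccnd3 took 80.5, 75.6, 76.3, 84.2, 70.6 and 87.2% of the 3 D-type cyclin transcripts in sham controls 1 to 6. In stroke mice 1 to 6, Ccnd3 took 81.4, 84.2, 89.2, 91.8, 94.4 and 86.2%. The mean shares were 79.1 ± 6.09% and 87.9 ± 4.86% (SD, n = 6 each), with 3 stroke mice above every sham control. Leaving out each mouse in turn gave a difference in the share between 7.11 and 10.4 percentage points. Conversely, Ccnd2 took 19.5 ± 5.80% in sham controls and 11.1 ± 5.09% in stroke mice, and Ccnd1 took 1.39 ± 0.486% and 0.984 ± 0.503% (SD, n = 6 each). Sham control 6 had the highest Ccnd3 share of its group, at 87.2%, and the lowest Ccnd2 value. The sum of the 3 transcripts was 212 ± 30.9 normalized TPM in sham controls and 337 ± 42.1 in stroke mice (SD, n = 6 each), without overlap. Ccnd3 alone differed by slightly more than the sum, because the mean of Ccnd2 was lower in stroke mice. The shares and the sum contain the Ccnd3 values that chose the gene, so they are no separate result.

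**Figure D2:**
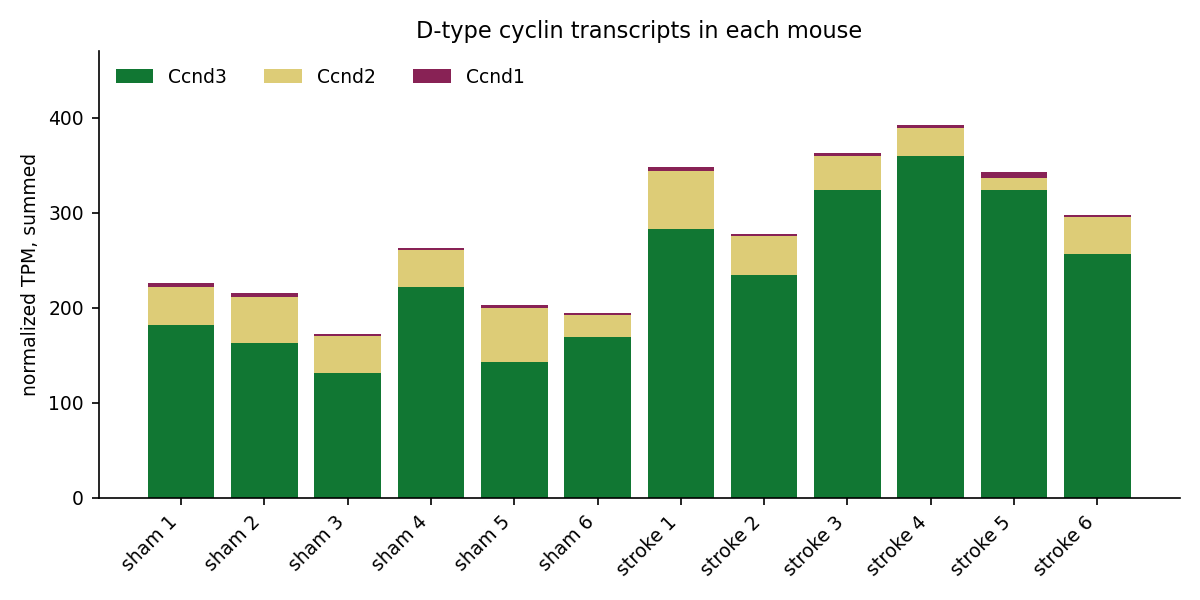
D-type cyclin transcripts in each of the 12 mice, as stacked bars of normalized TPM (Ccnd3 in green, Ccnd2 in yellow, Ccnd1 in dark red). The summed bars reach 173 to 263 in sham controls and 278 to 392 in stroke mice, and Ccnd3 is the largest part of every bar.

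Cdk4 and Cdk6 encode the catalytic partners of the D-type cyclins. Cdk4 lies on chromosome 10 from 127063534 to 127067920 on the plus strand. In sham controls 1 to 6, Cdk4 was at 52.9, 64.4, 47.4, 42.1, 49.6 and 26.8 normalized TPM. Stroke mice 1 to 6 had Cdk4 values of 48.3, 43.6, 48.6, 42.6, 31.5 and 35.2 normalized TPM. All stroke mice lay within the range of the sham controls. The means were 47.2 ± 12.5 and 41.6 ± 6.98 (SD, n = 6 each), and the log2 fold change was -0.15 with a standard error of 0.19. It was -0.30 without sham control 6, and 0.03 with the epithelial marker score as a covariate. The RefSeq window of Cdk4 is printed because MYC is a known activator of this gene and because it holds 4 copies of the E-box CACGTG (in capitals), the most of the 9 windows found for 7 of the genes.
Cdk4 start, chr10:127063285-127063584, plus strand: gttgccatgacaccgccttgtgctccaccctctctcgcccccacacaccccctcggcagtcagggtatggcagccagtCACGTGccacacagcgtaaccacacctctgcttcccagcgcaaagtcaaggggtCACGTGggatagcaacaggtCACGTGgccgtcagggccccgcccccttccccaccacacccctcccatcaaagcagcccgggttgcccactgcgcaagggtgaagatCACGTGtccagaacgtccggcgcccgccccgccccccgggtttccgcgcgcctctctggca
The copies begin 172, 118, 98 and 11 bases before the start. Cdk6 and Cdkn2c hold 1 copy each, and no copy was found in the windows of Ccnd3, Cdkn1b, Rbl2 and E2f1. Myc itself was at 31.9 ± 8.77 normalized TPM in sham controls and 31.3 ± 10.7 in stroke mice (SD, n = 6 each), with overlapping groups.

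Cdk6 (chr5:3341485-3531008, plus strand) had the narrowest range of the 10 genes, with a 1.75-fold difference between the highest and the lowest of the 12 mice. In sham controls, it ranged from 23.4 to 41.0 normalized TPM with a median of 28.4, and in stroke mice from 26.3 to 39.9 with a median of 31.6. The means were 30.2 ± 5.94 and 32.9 ± 5.58 (SD, n = 6 each), with a log2 fold change of 0.13 and a standard error of 0.15. Leaving out sham control 6 gave 0.06, stroke mouse 5 0.08, stroke mouse 6 0.07, sham control 5 0.22, and both sham control 6 and stroke mouse 5 0.01. The levels of Ccnd3 were also related to those of its partners. The ratio of Ccnd3 to Cdk4 was 3.87 ± 1.55 in sham controls and 7.32 ± 1.82 in stroke mice (SD, n = 6 each), with 4 stroke mice above every sham control. The ratio of Ccnd3 to Cdk6 was 5.79 ± 1.64 and 9.29 ± 2.34 (SD, n = 6 each), again with 4 stroke mice above every sham control. These ratios contain the Ccnd3 values that chose the gene.

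Cdkn1b encodes p27, which inhibits cyclin E and CDK2 complexes and is bound by cyclin D complexes, and lies at chr6:134920401-134925513 on the plus strand. In sham controls 1 to 6, Cdkn1b was at 43.3, 40.0, 43.2, 39.1, 26.1 and 25.1 normalized TPM. In stroke mice 1 to 6, it was at 48.4, 34.2, 29.4, 29.2, 39.0 and 32.2 normalized TPM. The sham controls fell into 4 mice of at least 39.1 and a pair at 26.1 and 25.1, and 5 of the stroke mice lay within the sham range. The log2 fold change was -0.02 with a standard error of 0.18. It lay between -0.11 and 0.04 with each mouse left out, lowest without sham control 6, and was -0.15 without sham control 6 and stroke mouse 5. The ratio of Ccnd3 to Cdkn1b was 4.87 ± 1.34 in sham controls and 8.72 ± 2.48 in stroke mice (SD, n = 6 each), and 5 stroke mice were above every sham control. This ratio also contains the Ccnd3 values that chose the gene.

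Cdkn2c encodes p18, an inhibitor of CDK4 and CDK6 that limits the proliferation of B cells and plasma cell precursors, and lies on chromosome 4 from 109660876 to 109667189 on the minus strand. It ranged from 3.16 to 7.07 normalized TPM with a median of 4.81 in sham controls and from 3.82 to 8.62 with a median of 5.22 in stroke mice. The highest value was that of stroke mouse 3 and the lowest that of sham control 6. The means were 4.99 ± 1.34 and 5.66 ± 1.71 (SD, n = 6 each), and the log2 fold change was 0.16 with a standard error of 0.20. Without sham control 6 it was 0.05, without stroke mouse 3 0.04, and without sham control 6 and stroke mouse 5 0.01. Of the fits without a single mouse, the highest value was 0.26, without sham control 2, and the same total gave 0.28.

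Rb1 encodes the retinoblastoma protein, which holds activating E2F factors in check, and lies at chr14:73183673-73325822 on the minus strand. In sham controls 1 to 6, Rb1 was at 72.4, 54.9, 49.6, 53.1, 45.3 and 60.0 normalized TPM. Rb1 in stroke mice 1 to 6 was at 53.6, 49.1, 32.0, 57.1, 39.1 and 45.5 normalized TPM. Stroke mice 3 and 5 were below every sham control, and the other 4 were within the sham range. The means were 55.9 ± 9.47 and 46.1 ± 9.34 (SD, n = 6 each), and the log2 fold change of -0.29 with a standard error of 0.16 was the largest in size among the 9 genes other than Ccnd3 in this fit. Its sign was the same in all 25 alternative settings, but its size and rank were not. It was -0.19 without stroke mouse 3, -0.16 at the same total and -0.12 with sample quality weights, and Rbl2 differed more than Rb1 in each of these, with 0.30, 0.38 and 0.18.

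Rbl2 encodes p130, the pocket protein that represses cell cycle genes in resting cells, and lies at chr8:91070057-91123844 on the plus strand. In sham controls 1 to 6, Rbl2 was at 46.4, 43.0, 41.0, 35.7, 35.5 and 38.2 normalized TPM. Rbl2 in stroke mice 1 to 6 was at 46.6, 44.9, 40.4, 42.8, 77.8 and 41.4 normalized TPM. All 6 stroke mice were above the sham mean of 40.0 ± 4.31 (SD, n = 6), but only 2 were above every sham control. The stroke mean of 49.0 ± 14.3 (SD, n = 6) was drawn up by stroke mouse 5 at 77.8. The log2 fold change was 0.26 with a standard error of 0.16, and 0.12 without that mouse. The ratio of Rbl2 to Rb1 within each mouse was 0.724 ± 0.0835 in sham controls and 1.12 ± 0.461 in stroke mice (SD, n = 6 each), with 5 stroke mice above every sham control and stroke mouse 5 highest at 1.99. In the fit of all mice, these had the most positive and most negative log2 fold change of the 9 genes other than Ccnd3. The ratio therefore restates both differences. The ratio of Cdk4 to Cdkn1b was 1.33 ± 0.347 and 1.215 ± 0.312 (SD, n = 6 each), with 0 stroke mice above every sham control. Cdk6 took 39.5 ± 5.47% and 44.3 ± 8.28% of Cdk4 and Cdk6 (SD, n = 6 each), with 2 above.

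E2f1 encodes an activating E2F factor whose own transcription increases as cells enter S phase, and lies at chr2:154559407-154569892 on the minus strand. It ranged from 5.79 to 12.8 normalized TPM with a median of 6.73 in sham controls and from 5.86 to 11.2 with a median of 7.57 in stroke mice. Sham control 5 was at 12.8 and stroke mouse 3 at 11.2, whereas the other 10 mice did not exceed 7.99. The log2 fold change was 0.06 with a standard error of 0.20. The value turned on these mice, since it was 0.22 without sham control 5, -0.05 without stroke mouse 3 and 0.01 without sham control 6.

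**Figure D3:**
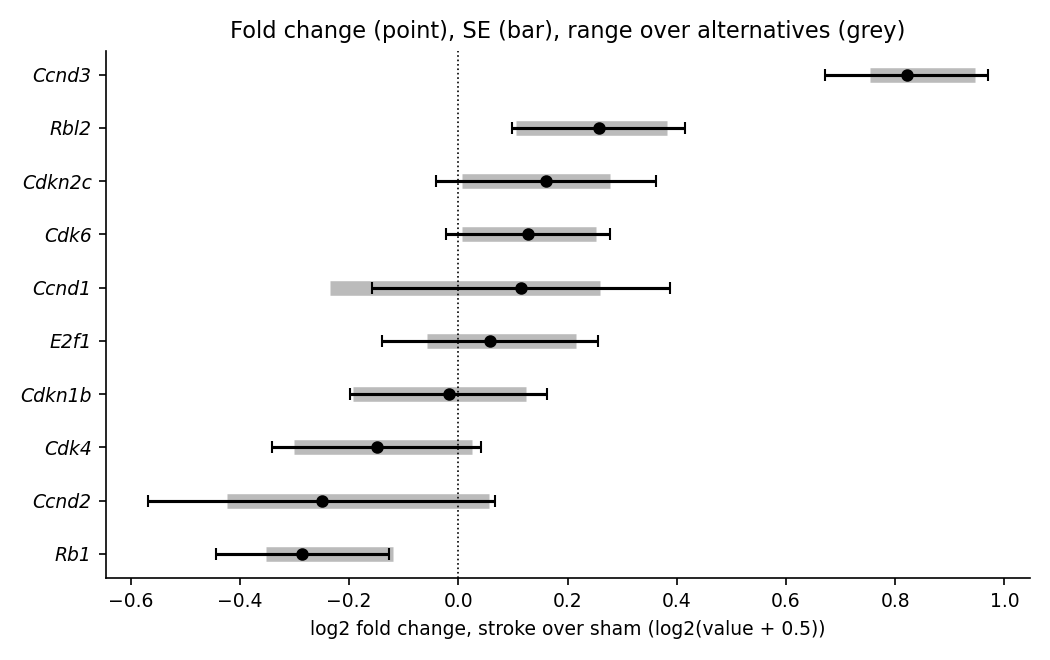
Log2 fold change of stroke mice over sham controls for each gene on the log2(value + 0.5) scale. Points show the value from all 12 mice, black bars the standard error and grey bands the range over the 25 alternative settings. Ccnd3 lies at 0.82 with a band of 0.75 to 0.95, and the other 9 genes lie between -0.29 and 0.26.

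Across the 10 genes, 6 log2 fold changes were positive and 4 negative. Their median was 0.09, and 0.06 for the 9 genes other than Ccnd3, compared with 0.01 over all 12590 genes. The sign depended on the setting for Ccnd1, Ccnd2, Cdk4, Cdkn1b and E2f1, and was stable over all 25 alternatives for Ccnd3, Cdk6, Cdkn2c, Rb1 and Rbl2. Scaling every library to the same total shifted the median of all genes to 0.13, and the Ccnd3 log2 fold change was then 0.95. For 7 of the 10 genes, exons overlap those of a gene on the opposite strand in GENCODE M21, and the strand setting of the quantification was not given in the sources used here, so reads in these stretches cannot be assigned for sure. For Ccnd3 this gene is Bysl, which was at 8.40 ± 1.42 normalized TPM in sham controls and 7.68 ± 1.64 in stroke mice (SD, n = 6 each), far below Ccnd3. For Ccnd1 it is LTO1, which at 23.4 ± 4.73 and 25.3 ± 5.47 was far above Ccnd1 and shares up to 818 bases of an exon with it, so the low Ccnd1 values are uncertain. For Cdk4 it is Tspan31, at 17.6 ± 2.84 and 21.0 ± 5.86 (SD, n = 6 each).

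The 10 genes were next compared with each other over the 12 mice on the log2 scale. For all relations between mice, the mean of each group was first taken away, so that they describe the variation within the groups, mice were permuted within their group, and r was computed again without the 2 mice farthest from the median of these centred values. Of the 45 pairs, 0 had an adjusted p under 0.05 (permutation tests of Pearson's r with 100000 permutations, two-sided, Benjamini-Hochberg), and 5 had an unadjusted p under 0.05. Ccnd2 and Cdk4 had r = 0.70 and rho = 0.68 (permutation p = 0.00521 and 0.0247, adjusted p = 0.163 and 0.39), with r = 0.86 within sham controls and 0.77 within stroke mice. This relation rested on sham control 6 and stroke mouse 5, without which r was 0.29. Ccnd1 and Rbl2 had r = 0.81 and rho = 0.59 (permutation p = 0.00725 and 0.0471, adjusted p = 0.163 and 0.39), and r was 0.46 without sham control 1 and stroke mouse 5. Rb1 was inversely related to both E2f1, with r = -0.67, and Cdkn2c, with r = -0.67, and Cdkn2c and E2f1 had r = 0.65 (permutation p = 0.0217, 0.0270 and 0.0372, adjusted p = 0.303, 0.303 and 0.335). Their rho values were -0.59, -0.68 and 0.61, with permutation p of 0.0606, 0.0271 and 0.0525 and an adjusted p of 0.39 each. For Ccnd3, r with the other genes lay between -0.36 and 0.18, and 0 of these relations had an unadjusted permutation p under 0.05. Its relation with the smallest p was that with Ccnd2, with r = -0.36 and rho = -0.53 (permutation p = 0.272 and 0.0919, adjusted p = 0.72 and 0.414).

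Marker scores, the mean log2 level of the genes of a list in each mouse, were compared between the groups and with the 10 genes. The score of 9 markers of cycling cells (Mki67, Top2a, Cdk1 and others) was 4.62 ± 0.472 in sham controls and 4.77 ± 0.392 in stroke mice (SD, n = 6 each), which was within the spread of the mice (exact permutation test, two-sided, p = 0.554, adjusted p = 0.801 over 10 lists). The difference of 0.16 was 0.01 without stroke mouse 3 and 0.31 without sham control 5. The germinal centre B cell score of 9 genes was 4.87 ± 0.476 and 4.99 ± 0.380 (SD, n = 6 each; exact permutation p = 0.649, adjusted p = 0.812), and its difference of 0.12 was -0.01 without stroke mouse 3 and 0.27 without sham control 5. E2f1 moved with the cycling score, with r = 0.89 and rho = 0.74 over 12 mice (permutation p = 0.00059 and 0.00659, adjusted p = 0.059 and 0.312 over 100 relations of 10 genes with 10 lists). The relation was present within sham controls with r = 0.84 and within stroke mice with r = 0.96, and r was 0.60 without sham control 5 and stroke mouse 3, the 2 mice with the highest scores. E2f1 had a similar r of 0.88 with the germinal centre score (permutation p = 0.00148, adjusted p = 0.074; rho = 0.73, adjusted p = 0.312), and 0.54 without the same mice. Cdkn2c had r = 0.75 with the cycling score (permutation p = 0.00832, adjusted p = 0.134; rho = 0.62, adjusted p = 0.453), and 0.65 without these mice. Of the 100 relations, 0 passed an adjusted p under 0.05.

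Ccnd3 had r = -0.02 and rho = 0.07 with the cycling score over the 12 mice (permutation p = 0.965 and 0.847, adjusted p = 0.978 and 0.945). Within sham controls r was -0.30, and within stroke mice it was 0.36. With the cycling score as a covariate, the log2 fold change of Ccnd3 was 0.82, as without it. The part of cycling cells in the Ccnd3 difference was not tested beyond these values.

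**Figure D4:**
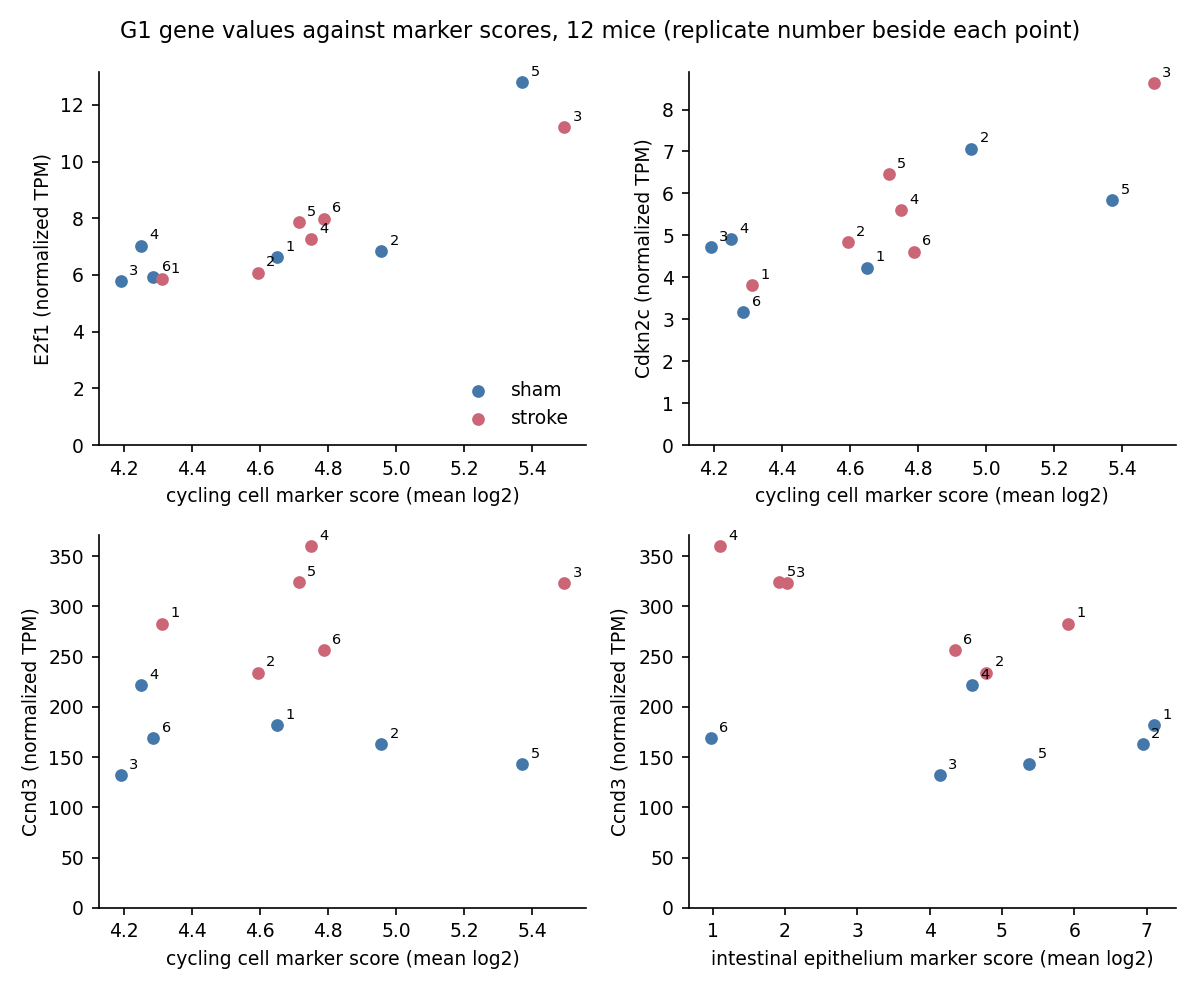
E2f1, Cdkn2c and Ccnd3 in normalized TPM (y axes from 0) against marker scores (x axes, mean log2 level), with 1 point for each of the 12 mice, sham controls in blue and stroke mice in red, and the replicate number beside each point. With the mean of each group taken away, r with the cycling score was 0.89 for E2f1, 0.75 for Cdkn2c and -0.02 for Ccnd3, and the 3 stroke mice with the lowest epithelial scores have the highest Ccnd3 values.

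The markers of intestinal epithelium varied most between libraries. Their summed level was 37.6 to 2475 normalized TPM in sham controls and 35.0 to 1335 in stroke mice, and all 11 markers were above 0 in every mouse. The score was 4.85 ± 2.25 and 3.35 ± 1.92 (SD, n = 6 each), a difference of -1.51 which was also within the spread of the mice (exact permutation test, two-sided, p = 0.245, adjusted p = 0.801). It was -2.28 without sham control 6 and -1.06 without sham control 1. Ccnd3 had r = -0.33 and rho = -0.39 with this score over the 12 mice (permutation p = 0.329 and 0.230, adjusted p = 0.731 and 0.648). Within sham controls r was 0.05, and within stroke mice it was -0.82, where mice 3, 4 and 5 had the lowest epithelial sums, at 57.1, 35.0 and 63.4, and the highest Ccnd3 values. With the epithelial score as a covariate, the log2 fold change of Ccnd3 was 0.76, compared with 0.82 without it. Sham control 6, with an equally low sum of 37.6, had a Ccnd3 value of 169 normalized TPM. The part of these markers in the Ccnd3 difference was not tested beyond these values.

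Of the other lists, the follicular B cell score was 7.06 ± 0.273 in sham controls and 6.66 ± 0.508 in stroke mice (SD, n = 6 each), with an exact permutation p of 0.0931 and an adjusted p of 0.801, and stroke mouse 5 was lowest. The difference of -0.40 was -0.20 without this mouse, and that of the B cell score was then -0.03. The B cell, plasma cell, T cell, endothelium, neutrophil and macrophage scores differed by -0.14, -0.23, -0.01, -0.08, 0.16 and -0.04 between stroke mice and sham controls, with adjusted p from 0.801 to 0.981 (exact permutation tests). With each mouse left out, the ranges were -0.20 to -0.03, -0.42 to -0.09, -0.16 to 0.21, -0.17 to -0.02, 0.08 to 0.22 and -0.22 to 0.13 in the same order, so single mice set the size of these differences and the sign for T cells and macrophages. Neutrophil markers were near 0, with sums of 0.77 to 2.97 normalized TPM. Elane was at 0 in all mice except stroke mice 5 and 6, at 0.056 and 0.228. Of the endothelial markers, Pecam1, which B cells also express, was at 77.1 to 105 normalized TPM, and Cdh5, Kdr and Emcn did not exceed 2.93. T cell markers summed to 37.9 to 149.6 normalized TPM. Ccnd2 had r = 0.88 and rho = 0.59 with the B cell score (permutation p = 0.00366 and 0.0569, adjusted p = 0.0915 and 0.474), which rested on sham control 6 and stroke mouse 5, as r was 0.39 without them. With the epithelial score, Ccnd2 had r = 0.69 and rho = 0.79 (permutation p = 0.00809 and 0.00551, adjusted p = 0.134 and 0.312), with r = 0.80 within sham controls and 0.70 within stroke mice, and r = 0.51 without sham control 6 and stroke mouse 1, the farthest from the median of the centred score.

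A wider list of 63 genes of G1 control was compared between the groups. Of these, 62 were in the table and 58 passed the filter. At an unadjusted p under 0.05, 2 were higher and 2 were lower in stroke mice, which is 6.90% of the 58 genes compared with 6.12% of all genes, and 0 had an adjusted p under 0.05 (limma). The share called was therefore near that of the whole table. Without sham control 6, 2 were higher and 5 lower, beside 2098 of 12661 genes called in all. The median log2 fold change was 0.03, compared with 0.01 over all genes.

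Of these genes, Tcf3 had the smallest unadjusted p and was higher in stroke mice. It encodes the E proteins E12 and E47, which drive B cell gene programmes and are known activators of the cyclin D3 gene in Burkitt lymphoma. Tcf3 ranged from 92.0 to 123 normalized TPM in sham controls and from 119 to 162 in stroke mice, with an overlap at the border, and had a log2 fold change of 0.41 with a standard error of 0.11 (limma, adjusted p = 0.716). It had an unadjusted p under 0.05 in all 25 alternative settings, with log2 fold changes of 0.33 to 0.54. These settings reuse the same mice, and the list was chosen with earlier results of these data known. A link of Tcf3 with Ccnd3 was not tested. Id3, which encodes an inhibitor of E proteins, was at 32.1 ± 7.21 normalized TPM in sham controls and 25.8 ± 3.50 in stroke mice (SD, n = 6 each), and its log2 fold change of -0.29 (standard error 0.16, limma adjusted p = 0.791) did not pass the unadjusted threshold. Its values ranged from -0.37 to -0.17 over the 25 alternatives, and it passed in 1 of them. Foxo1, another regulator of B cell cycling, was at 32.2 ± 7.38 and 31.4 ± 3.01 (SD, n = 6 each). Of the 6 upstream regulators tested, 1 was higher by the unadjusted p and 0 were lower, beside 4.42% and 1.69% of all genes, and so few genes give no share to compare.

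Fbxo31, a ubiquitin ligase subunit that targets cyclin D1 for degradation, was higher in stroke mice, with 14.0 ± 2.11 normalized TPM in sham controls and 18.1 ± 4.22 in stroke mice (SD, n = 6 each), a log2 fold change of 0.35 (standard error 0.15, limma adjusted p = 0.791). It was the only one of 12 tested genes of D-type cyclin and p27 turnover with an unadjusted p under 0.05, beside 6.12% of all genes, and it kept this in 11 of 25 alternatives. Without stroke mouse 5, the value fell short of the threshold at 0.24. Ambra1, the main ubiquitin ligase receptor for D-type cyclins, was at 31.1 ± 3.82 and 30.2 ± 4.65, and Gsk3b, a kinase that marks cyclin D1 for export and degradation, was at 33.8 ± 4.91 and 32.8 ± 2.89 (SD, n = 6 each), with overlapping groups. Skp1a had a log2 fold change of -0.37 (standard error 0.30, limma adjusted p = 0.832), which ranged from -0.64 to -0.05 over the 25 alternatives and had an unadjusted p under 0.05 in 3 of them.

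Of the 15 pocket protein and E2F partners, 0 were higher and 2 were lower by the unadjusted p, which is 13.3% called beside 6.12% of all genes, and the difference rests on 2 genes. Lin52, a subunit of the DREAM complex through which p130 represses cell cycle genes, was at 12.1 ± 2.66 normalized TPM in sham controls and 8.58 ± 1.98 in stroke mice (SD, n = 6 each), a log2 fold change of -0.48 (standard error 0.18, limma adjusted p = 0.772), which passed in 21 of 25 alternatives, but not without sham control 4 or stroke mouse 3, at the same total or with sample quality weights, at -0.40, -0.37, -0.36 and -0.40. E2f3, an activating E2F like E2f1, was at 9.33 ± 2.0 and 6.92 ± 1.61 (SD, n = 6 each), a log2 fold change of -0.42 (standard error 0.19, limma adjusted p = 0.791), which passed in 13 of 25 alternatives. Without stroke mouse 5, whose E2f3 value of 3.84 was the lowest, it was -0.27. All 6 stroke mice were below the sham mean for both genes. E2f2 and E2f4 did not pass, at log2 fold changes of -0.21 and 0.12.

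No gene downstream in G1 passed the unadjusted threshold, which 6.12% of all genes did, so these counts of 0 are near that share. They hold for the fit of all 12 mice, since Ccne1 passed in 3, Ccnh in 1 and Cdkn1a in 1 of the 25 alternatives. The log2 fold change ranged over these from 0.14 to 0.38 for Ccne1, -0.32 to -0.05 for Ccnh and -0.32 to 0.01 for Orc1. Of 17 E2F target genes of S phase entry, 0 had an unadjusted p under 0.05, 11 had a positive and 6 a negative log2 fold change, and the values lay between -0.20 for Orc1, a subunit of the origin recognition complex, and 0.18 for Cdc25a, a phosphatase that activates CDK2. Of the 6 later G1 cyclins and kinases, 0 passed, with Ccne1 (cyclin E1) at 17.1 ± 2.93 and 20.2 ± 4.24 normalized TPM and Ccnh (cyclin H of the CDK-activating kinase) at 57.7 ± 9.56 and 50.9 ± 9.23 (SD, n = 6 each). Of the 5 other CDK inhibitors, only Cdkn1a (p21) and Cdkn2d (p19) passed the filter, with log2 fold changes of 0.06 and -0.18 and standard errors of 0.38 and 0.21. Over the 25 alternatives, Cdkn1a ranged from -0.20 to 0.55 and changed its sign in 5, and Cdkn2d ranged from -0.35 to 0.02 and changed its sign in 1. Cdkn1c, Cdkn2a, Cdkn2b and Mycn were below 1 normalized TPM in at least 1 mouse.

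**Figure D5:**
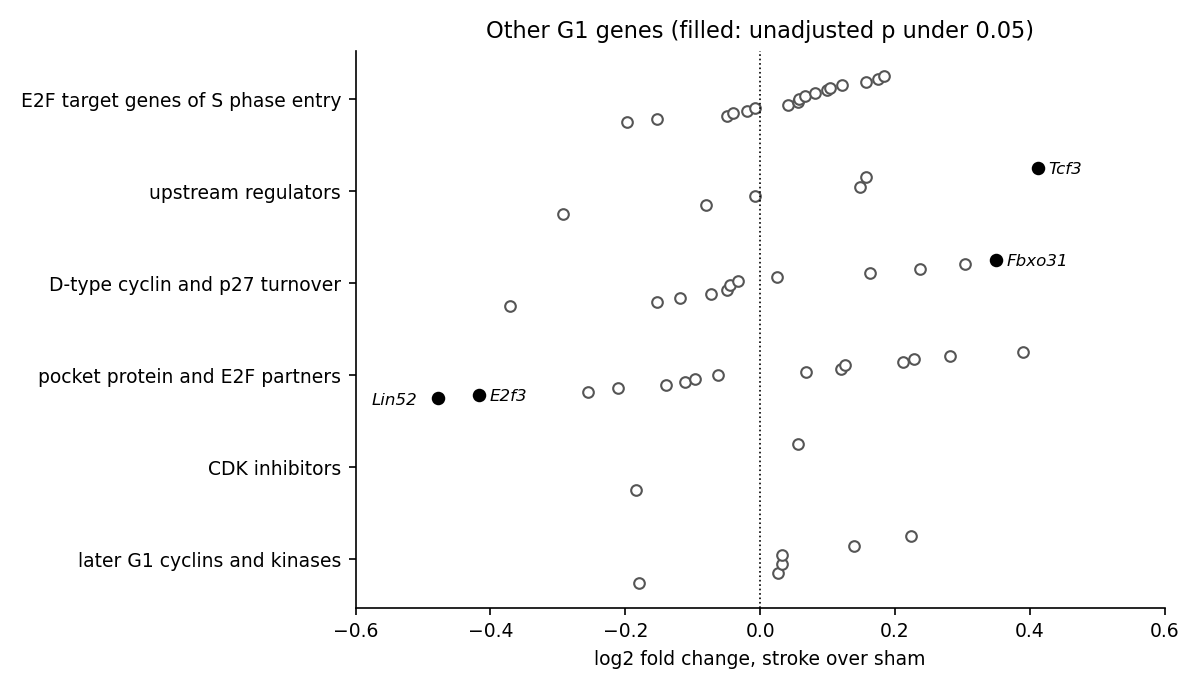
Log2 fold change of stroke mice over sham controls for 58 other G1 genes, grouped by role, with 1 point per gene. Filled points had an unadjusted p under 0.05 in limma (Tcf3, Fbxo31, Lin52 and E2f3), none of them after adjustment, and the 17 E2F target genes lie between -0.20 and 0.18.

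Finally, the genes whose values varied most like Ccnd3 were sought among all genes tested, after the mean of each group was taken away. Over the 12 mice, these were Esr1 (r = 0.85), Gm20701 (0.84), Dclre1b (0.83), Nif3l1 (0.83) and Gm14295 (0.81). Esr1 encodes the oestrogen receptor alpha and was at 3.28 normalized TPM in sham controls and 3.39 in stroke mice, so it shared the variation within the groups and not the difference between them. Dclre1b, a nuclease that protects telomeres, had a log2 fold change of 0.43 and Gm20701 one of -0.58. These are the highest correlations among all genes tested, over few mice, and are given as a description.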

How the data were processed

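RNA-seq of PP B cells was analysed in 6 sham controls and 6 stroke mice, with groups and replicate numbers taken from the sample labels. The 10 genes and all gene lists were chosen with earlier results of these data known. According to the methods and the submitters' processing notes, the authors trimmed reads with Trimmomatic 0.39, quantified transcripts with kallisto 0.48.0 on GRCm38, removed transcripts under 1 TPM across all samples and tested with sleuth 0.30.0 in R 4.1.2. The deposited table gives each gene a signal that is labelled normalized TPM, and its totals differ between libraries (559570 to 1404340). Depth is unknown, so intervals for counting error were not computed. A row of the design assumed TPM, and the same log-scale test was kept.

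From these values, log2(value + 0.5) was fitted with limma 3.58.1 in R 4.3.3 on 12590 genes at 1 or more in every mouse, without a block, with Benjamini-Hochberg adjustment. A fold change on this scale understates that of low genes. Marker scores were compared by exact permutation tests (two-sided, 924 assignments of mice to groups, smallest possible p 0.00216) and relations, with group means taken away, by 100000 permutations within groups (scipy 1.17.1). Mice are the replicates. Named genes were the 10 genes, those of the wider list with an unadjusted p under 0.05 plus the 2 largest log2 fold changes of each of its groups, and the 5 most like Ccnd3. Foxo1, Myc, Ambra1, Gsk3b, E2f2, E2f4, Bysl, LTO1 and Tspan31 were added after their values were seen. Alternatives were other pseudocounts (0.1 and 1), filters, scalings, a replicate block, sample quality weights, an intensity trend and each mouse left out; the marker covariates and the removal of sham control 6 with stroke mouse 5 were added after seeing the data. Coordinates come from GENCODE M21 and start windows from RefSeq (GRCm38.p6).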

Additional observations from a re-analysis of the deposited data

Results flagged for a closer look

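In 46 groups of 6 mice, 7 held a mouse whose gap to the nearest other mouse was over 0.625 of the range of the group (Dixon's 95% critical value), which chance gives in about 1 group of 20. Of these, 5 concerned stroke mouse 5. Its Ccnd1 value was 6.73 normalized TPM, compared with 1.98 to 3.70 in the other stroke mice. Rbl2 was at 77.8 in this mouse, compared with 40.4 to 46.6. Ccnh was at 69.1, compared with 43.4 to 50.2. E2f3 was at 3.84, compared with 6.66 to 8.15, and Id3 was at 19.0, compared with 25.9 to 29.2. Stroke mouse 5 also had the lowest sum of follicular B cell markers, at 415.5, and its part in these values was not tested.

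E2f1 was at 12.8 normalized TPM in sham control 5, compared with 5.79 to 7.04 in the other sham controls, and this mouse had the highest cycling score of its group, at 5.37. Cdkn2d was at 8.82 in sham control 6, compared with 17.5 to 20.2, and this mouse had the lowest total, 559570. For Ccnd3, no mouse was set apart in this way in either group.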

How the results depend on the processing

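The Ccnd3 log2 fold change stayed between 0.75 and 0.95 over 25 alternatives. The count of 770 genes called was 1768 without a filter (1418 higher, 350 lower), 417 at the same total (348 and 69), 1569 with quality weights (866 and 703), 1637 without sham control 6 and stroke mouse 5 (819 lower) and 567 to 2098 with each mouse left out (395 to 936 higher, 146 to 1162 lower). Leaving out sham control 6 gave 936 higher and 1162 lower. Lower genes were 327 after quantile normalization and 130 with the epithelial covariate. The higher genes made up 72.3% of all called, 53.6% after quantile normalization, 83.5% at the same total, 80.2% without a filter, 55.2% with quality weights, 44.6% without sham control 6 and 49.97% without both mice. With a filter on the mean, 1 gene, which is not among the 10, had an adjusted p under 0.05, and 0 to 1 had with each mouse left out. In the wider list, 1 gene instead of 2 was higher after quantile normalization or with the cycling covariate, and 1 to 2 with each mouse left out. Lower were 0 at the same total, 4 with quality weights, 1 with the epithelial covariate, 4 without both mice and 0 to 5 with each mouse left out. The causes were not tested beyond these settings.

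A replicate block gave 770 higher and 404 lower genes, 1174 in all, with 1 wider gene in each direction (Tcf3 and Lin52, whereas Fbxo31 and E2f3 no longer passed) and a Ccnd3 log2 fold change of 0.82. What the numbers pair is not stated in the labels. Same-numbered mice correlated at 0.01 to 0.49, over 0.1 in 4 of 6 pairs, and 4 of 12 mice correlated best with their own number. The mean was 0.22 for same-numbered mice, compared with -0.04 for sham controls and stroke mice with different numbers.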
